A study of Mus musculus with 18 samples.

Results

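Interleukin-15 (Il15) and the alpha chain of its receptor (Il15ra) were followed in endothelial cells (ECs) of the mouse mammary gland and of breast tumours after a STING agonist. The rows of these 2 genes were taken by name from a table of 16248 genes. Il15 was chosen by its FPKM, which in these same libraries had risen more after cGAMP in implanted tumours than in other tissues. The control (PBS) libraries enter that rise too, so the values of Il15 are given as a description with no test. Il15ra was taken as its partner and was tested.

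ECs line blood vessels. They were sorted from fat pads of the mammary gland in wild-type FVB mice (normal), from spontaneous breast tumours of MMTV-PyMT mice on the FVB background, whose viral oncogene is driven by a promoter of the mammary epithelium, and from implanted tumours, grown after cultured tumour cells of such mice were put with Matrigel into the fat pad of female FVB mice that lack the transgene. Each tissue received PBS or cGAMP, a cyclic dinucleotide that binds and activates STING, and was collected 3 h later. The 6 groups held 3 libraries each, 18 in all, which the study took from separate mice. It does not say which libraries were made in the same experiment. ECs were CD31-positive and CD45-negative at the sort, CD45 being the marker of blood cells. Levels are FPKM (fragments counted on a gene, per kilobase of its exons and divided by a denominator of each library). Reads recovered from the FPKM of the listed genes numbered between 9057850 and 12037446 a library. The denominators were 0.745 to 0.841 times these reads in implanted cGAMP and 0.978 to 1.17 times in the other groups. For the same share of reads, FPKM are therefore higher in implanted cGAMP.

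IL-15 is a cytokine that keeps natural killer cells and memory CD8+ T cells alive and makes them divide. The alpha chain binds it with high affinity inside the producing cell and carries it to the surface, where it is shown to a neighbouring cell that bears the beta and gamma chains (Il2rb and Il2rg). Those chains signal through the kinases JAK1 and JAK3 to the transcription factor STAT5. Both Il15 and Il15ra are known as genes that respond to interferon and to NF-kB.

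Il15 (ENSMUSG00000031712.10) lies on the minus strand of chromosome 8 at 82331632 to 82403222 in GRCm38, and Il15ra (ENSMUSG00000023206.16) on the plus strand of chromosome 2 at 11705290 to 11734317. The annotation GENCODE M21 gives Il15 a summed exon length of 2261 bases and Il15ra one of 4446 bases. Other annotated genes that overlap them numbered 0 for each. FPKM sum the transcripts of a gene, of which 10 are annotated for Il15 and 18 for Il15ra. Soluble, membrane-bound and secreted forms could therefore not be told apart.

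RefSeq lists promoters for 1 of the 2 genes, Il15ra, which has 2 start sites. The stretches that lie before those starts are shown because the level of this gene differed by tissue and treatment (see the values further on). They are on the plus strand of GRCm38.p6 and leave out annotated exons of the gene. The first runs over chr2:11705043-11705289 and the second over chr2:11705579-11705711. Capitals mark a match to the kB pattern GGGNNNNNCC, read on either strand.
Il15ra start 1: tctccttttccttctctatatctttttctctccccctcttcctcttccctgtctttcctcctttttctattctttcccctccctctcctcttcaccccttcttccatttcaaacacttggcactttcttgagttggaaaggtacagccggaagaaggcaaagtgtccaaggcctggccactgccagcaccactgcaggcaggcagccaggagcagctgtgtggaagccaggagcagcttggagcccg
Il15ra start 2: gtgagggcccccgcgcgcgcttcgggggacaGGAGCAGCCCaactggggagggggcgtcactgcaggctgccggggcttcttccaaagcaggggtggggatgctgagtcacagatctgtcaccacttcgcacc

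Within 250 bases before and 50 after each start, the interferon pattern GAAANNGAAA and the STAT pattern TTCNNNGAA had 0 matches in either promoter. Over 32851 RefSeq promoters of the same length, 3.44% held the former and 8.30% the latter. The kB pattern had 1 match, which begins 102 bases before the second start, and 50.8% of promoters held that pattern. The 3 patterns share no match here. A match is a run of letters and not a shown binding site.

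Il15 was low in every PBS group. In normal ECs it stood at 2.51, 2.24 and 2.20 FPKM in the 3 PBS libraries. In MMTV-PyMT tumours it stood at 2.17, 2.61 and 2.12 FPKM under PBS. The PBS libraries of implanted tumours held 4.54, 4.30 and 3.27 FPKM, and each lay above all 6 PBS libraries of the other tissues. These levels rest on 54 to 96 reads a library.

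After cGAMP, normal ECs held 4.94, 5.46 and 4.15 FPKM of Il15. ECs of MMTV-PyMT tumours held 4.04, 6.37 and 5.21 FPKM. In both tissues every cGAMP library lay above every PBS library, with means of 4.85 ± 0.661 and 5.20 ± 1.16 FPKM (SD, n = 3) against 2.32 ± 0.168 and 2.30 ± 0.270 FPKM. The means were 2.09-fold higher in normal tissue and 2.26-fold higher in MMTV-PyMT tumours.

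In implanted tumours the cGAMP libraries held 84.0, 44.9 and 48.1 FPKM of Il15, from 1588, 854 and 1101 reads. Their mean was 59.0 ± 21.7 FPKM (SD, n = 3) against 4.04 ± 0.677 FPKM under PBS, which is 14.6-fold higher. The lowest cGAMP library of this tissue was 9.88-fold above its highest PBS library. That distance was 1.65-fold in normal tissue and 1.55-fold in MMTV-PyMT tumours. From low to high, the group means ran from MMTV-PyMT PBS and normal PBS, whose ranges overlap, through implanted PBS, normal cGAMP and MMTV-PyMT cGAMP, each of which overlaps the next, to implanted cGAMP, which stands apart from all.

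**Figure D1:**
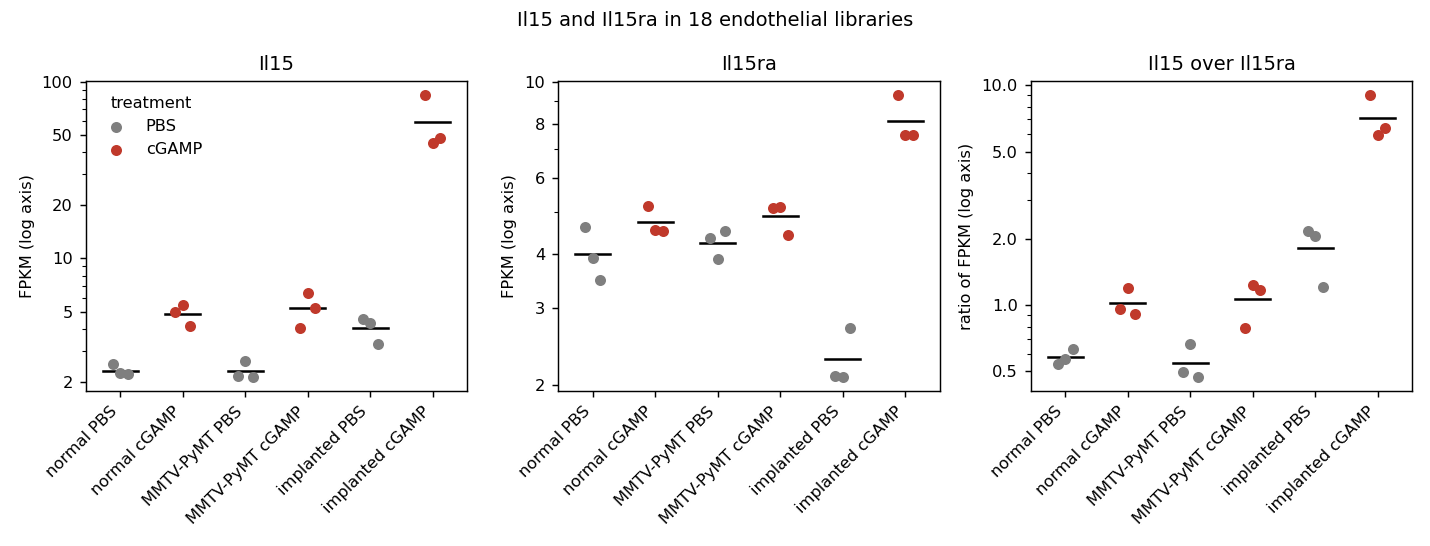
FPKM of Il15 (left) and Il15ra (middle) and the ratio of the former to the latter (right) on log axes, by group. Points are the 18 libraries (grey PBS, red cGAMP), bars are means of 3, and the implanted cGAMP libraries are the highest in all 3 panels, at 44.9 to 84.0 FPKM for Il15 and 7.53 to 9.31 FPKM for Il15ra.

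As log2(FPKM + 1), a scale that makes changes of low values look smaller, the cGAMP effect on Il15 was 0.81 (SE 0.19) in normal tissue, 0.90 in MMTV-PyMT tumours and 3.53 in implanted tumours, with the same SE. Sorted from the largest increase down, Il15 was number 633, 433 and 34 of the 13983 genes tested in these comparisons. Its effect in implanted tumours exceeded that in MMTV-PyMT tumours by 2.63 (SE 0.27) and that in normal tissue by 2.71 (SE 0.27). By those differences it was number 3 and number 11 of the 13983 genes tested. Since Il15 was chosen for this larger rise, high ranks in implanted tumours follow from the choice and are no support for it. The effects in MMTV-PyMT and normal tissue differed by 0.08 (SE 0.27).

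Il15ra had another order at rest. Under PBS it stood at 4.63, 3.93 and 3.49 FPKM in normal ECs and at 4.35, 3.90 and 4.51 FPKM in MMTV-PyMT tumours. In implanted tumours it stood at 2.09, 2.08 and 2.71 FPKM, below all 6 of those libraries. The difference on the log2 scale was -0.68 (SE 0.11, adjusted p = 0.000148) against MMTV-PyMT tumours and -0.60 (SE 0.11, adjusted p = 0.000278) against normal tissue, by limma with Benjamini-Hochberg adjustment over all genes. Of all genes, 24.6% and 23.6% were called lower in these comparisons (adjusted p under 0.05), and 20.8% were called higher in the former. Between MMTV-PyMT and normal tissue the PBS difference of Il15ra was 0.07 (95% CI -0.16 to 0.31, limma adjusted p = 0.596), where 29.8% of all genes were called higher and 26.6% lower.

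After cGAMP, Il15ra was at 5.16, 4.56 and 4.53 FPKM in normal ECs and at 5.13, 5.15 and 4.44 FPKM in MMTV-PyMT tumours. The ranges overlap those under PBS in both tissues. The effect was 0.20 on the log2 scale (95% CI -0.03 to 0.44, limma adjusted p = 0.175) in normal tissue and 0.17 (95% CI -0.07 to 0.40, limma adjusted p = 0.354) in MMTV-PyMT tumours. Neither passed the threshold, and both intervals reach beyond 0 on either side.

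In implanted tumours Il15ra rose after cGAMP, to 9.31, 7.54 and 7.53 FPKM. The mean was 8.13 ± 1.02 FPKM (SD, n = 3) against 2.30 ± 0.358 FPKM under PBS, or 3.54-fold higher, and the ranges do not overlap. The effect was 1.47 on the log2 scale (SE 0.11, 95% CI 1.24 to 1.70, limma adjusted p = 3.03e-08), while 20.3% of all genes were called higher in this comparison. It exceeded the effect in MMTV-PyMT tumours by 1.30 (SE 0.16, limma adjusted p = 0.000101, with 7.34% of all genes called higher). It exceeded the effect in normal tissue by 1.27 (SE 0.16, limma adjusted p = 5.32e-05, with 12.5% of all genes called higher). Between MMTV-PyMT and normal tissue the effects differed by -0.04 (95% CI -0.37 to 0.29, limma adjusted p = 0.923), where 5.48% of all genes were called higher and 2.90% lower. From low to high, the group means ran from implanted PBS, which stands apart, through normal PBS and MMTV-PyMT PBS, which overlap, and normal cGAMP and MMTV-PyMT cGAMP, which overlap, to implanted cGAMP, which stands apart again.

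**Figure D2:**
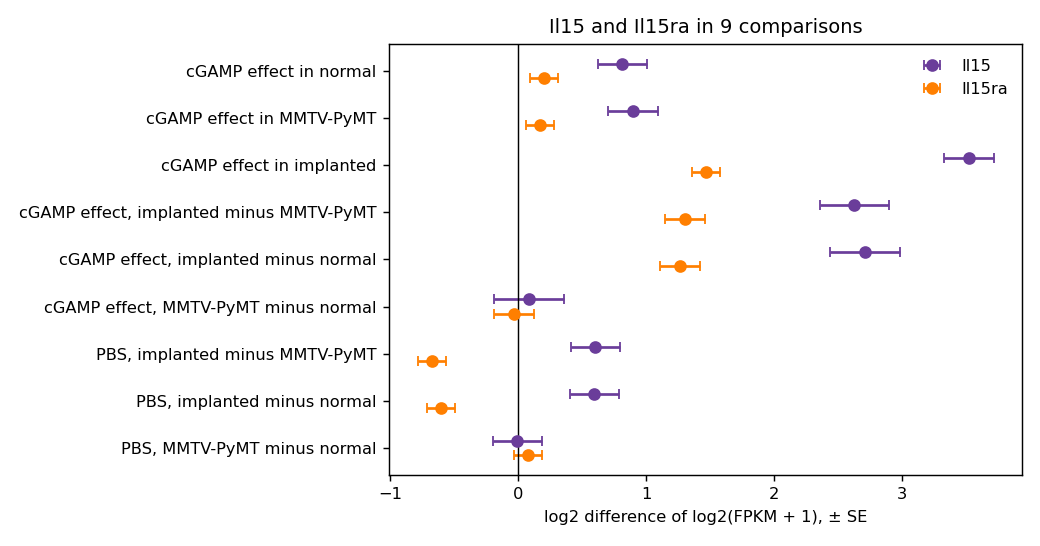
Log2 differences of Il15 (purple) and Il15ra (orange) on the log2(FPKM + 1) scale with their SE, for the cGAMP effect in each tissue, the differences of that effect between tissues and the tissue differences under PBS. In the last, implanted tumours lie near 0.60 above for Il15 and 0.60 to 0.68 below for Il15ra.

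The balance of both transcripts moved with these levels. Per gene length, the ratio of Il15 to Il15ra had a mean of 0.581 in normal PBS and 0.546 in MMTV-PyMT PBS. FPKM divide by the summed exons of all transcripts of a gene. The ratio can thus be compared between groups but does not show which transcript was more abundant. After cGAMP it was 1.02 in normal tissue and 1.07 in MMTV-PyMT tumours. In implanted tumours it was 1.81 under PBS and 7.12 after cGAMP. Since Il15 enters this ratio, it is a description too.

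Markers bear on which cells the RNA came from. All 10 endothelial markers, among them Pecam1 and Cdh5, were in the table, and their summed level was 850 to 2158 FPKM over the 18 libraries. In implanted tumours that sum was 1303 to 1644 FPKM under PBS and 1297 to 2158 FPKM after cGAMP. Epithelial, mural and fibroblast markers were present in every group as well. Summed epithelial markers were 838 to 905 FPKM in MMTV-PyMT PBS, where endothelial markers were 850 to 1034 FPKM. Epithelial markers were 313 to 395 FPKM in normal PBS and 345 to 494 FPKM in implanted PBS. Summed mural markers were 918 to 1033 FPKM in normal PBS, 226 to 308 FPKM in MMTV-PyMT PBS and 214 to 253 FPKM in implanted PBS. In implanted cGAMP, mural markers were 174 to 443 FPKM and epithelial markers 245 to 533 FPKM. Implanted cGAMP 1, which had the most Il15, held the highest mural and the lowest epithelial sum of that group. The summed fibroblast markers were 234 to 269 FPKM in implanted PBS and 253 to 602 FPKM in implanted cGAMP. Of these, 4 of 5 (Col1a1, Col1a2, Dcn and Lum) were called higher after cGAMP there, beside 20.3% of all genes. The part of epithelial, mural and fibroblast cells in the Il15 and Il15ra levels was not tested. In bulk RNA, fewer cells of a type and less RNA per cell cannot be told apart.

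Macrophages and dendritic cells are well-known sources of IL-15. Of 22 leukocyte markers, 15 were in the table, and those not listed include Itgam, Ncr1 and Ms4a1. The table holds no value of 0 for any gene. The summed level of the 15 was 43.2 to 108 FPKM in implanted PBS and 86.9 to 439 FPKM in implanted cGAMP, where 3 of the 15 (Cd68, Fcer1g and Gzmb) were called higher, beside 20.3% of all genes. It was 29.5 to 45.1 FPKM in the 6 MMTV-PyMT libraries. Ptprc, which encodes the CD45 that the sort was to remove, exceeded 5 FPKM in 3 libraries. These were normal PBS 3 (6.31 FPKM), normal cGAMP 1 (9.73 FPKM) and implanted cGAMP 2 (9.24 FPKM).

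The library with the most leukocyte RNA, implanted cGAMP 2, had the lowest Il15 of its group (44.9 FPKM). Implanted cGAMP 1, at 84.0 FPKM of Il15, held 95.1 FPKM of leukocyte markers, while implanted PBS 3 held 108 FPKM of them and 3.27 FPKM of Il15. Without the 3 libraries rich in Ptprc, the cGAMP effect on Il15 in implanted tumours was 3.69. For Il15ra it was then 1.51 (limma adjusted p = 6.30e-07). This subset was chosen after the data were seen, and the part of leukocytes in the Il15 and Il15ra levels was not tested.

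**Figure D3:**
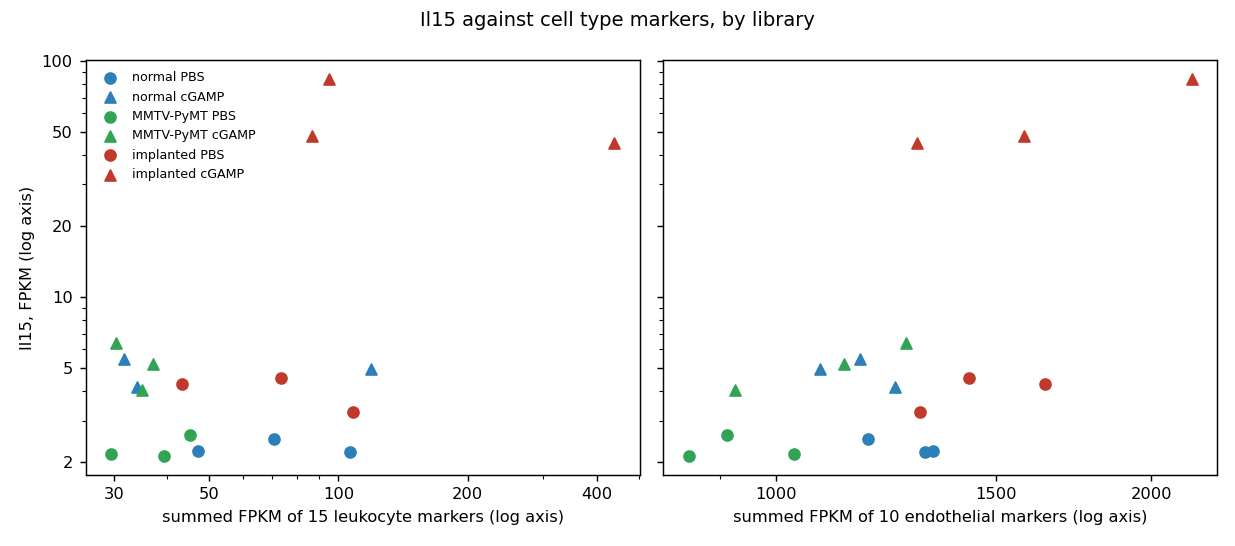
Il15 (FPKM, log axis) in each of the 18 libraries against the summed FPKM of 15 leukocyte markers (left) and of 10 endothelial markers (right), both on log axes. Colours give the tissue and shapes the treatment, and the 3 implanted cGAMP libraries (red triangles) lie at 44.9 to 84.0 FPKM of Il15 across 86.9 to 439 FPKM of leukocyte markers.

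The chains that receive IL-15 were measured in the same libraries. Il2rb, the beta chain shared with the IL-2 receptor and typical of natural killer and T cells, was at 3.99, 17.7 and 2.88 FPKM in implanted cGAMP against 2.32, 1.001 and 2.22 FPKM in implanted PBS. It rose by 1.36 (SE 0.48, limma adjusted p = 0.0330), and the high value is that of the library with the most leukocyte RNA. Without that library the difference was 0.66 (limma adjusted p = 0.172), and without all 3 libraries rich in Ptprc it was also 0.66 (limma adjusted p = 0.0354). The call was lost too without implanted PBS 2 (1.12, limma adjusted p = 0.118) or implanted PBS 3 (1.47, limma adjusted p = 0.0515), with only the groups compared (limma adjusted p = 0.110) and when scaled by total reads (1.10, limma adjusted p = 0.0640). In MMTV-PyMT tumours Il2rb stayed between 0.141 and 0.301 FPKM in all 6 libraries.

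Il2rg, the common gamma chain, was at 22.6 to 39.5 FPKM in implanted cGAMP against 15.3 to 17.2 FPKM in implanted PBS. It rose by 0.84 there (SE 0.19, limma adjusted p = 0.00223). In normal tissue its difference was 0.07 (limma adjusted p = 0.818) and in MMTV-PyMT tumours 0.45 (limma adjusted p = 0.131). The gamma chain is also carried by leukocytes, and the part they have in its level was not tested.

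A list of 25 further genes of the IL-15 system covered receptor chains, kinases, STATs, the sheddase Adam17, feedback and target genes, and related cytokines with their receptors. Of these, 20 were in the table and 19 were tested, since Il4 was below the filter. In normal tissue 8 were called higher and 2 lower, while 13.7% and 18.2% of all genes were. In MMTV-PyMT tumours the counts were 6 and 0, against 7.42% and 4.57% of all genes. In implanted tumours 14 were called higher and 1 lower, against 20.3% and 18.8%. The median effect of the list was 0.24, 0.24 and 0.74 in these tissues, where that of all genes was -0.04, -0.04 and -0.01. When libraries were scaled by their total reads, 9 genes of the list were called higher in implanted tumours, at a median of -0.25 over all genes. The share of all genes called under that scaling is not given here.

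Among the kinases, Jak1 rose by 0.79 in implanted tumours (SE 0.10, limma adjusted p = 7.39e-06) and by 0.29 in normal tissue (SE 0.10, limma adjusted p = 0.0284). The latter call was lost without any 1 of 4 libraries (normal PBS 1 or 2, normal cGAMP 1 or 3), with values of 0.24 to 0.31, and without the 3 libraries rich in Ptprc (limma adjusted p = 0.0562). Jak3, which pairs with the gamma chain, was called higher at 0.28, 0.40 and 0.36 in normal tissue, MMTV-PyMT tumours and implanted tumours. These calls were close to the threshold (limma adjusted p = 0.0499, 0.0206 and 0.0123) and went missing in 13, 4 and 2 of the 18 fits with 1 library omitted, at adjusted p up to 0.187. The call in implanted tumours was also lost with quantile normalization (0.10, limma adjusted p = 0.413) and when scaled by total reads (0.05, limma adjusted p = 0.644), that in MMTV-PyMT tumours with only the groups compared (limma adjusted p = 0.0505), and that in normal tissue under 4 further alternatives (limma adjusted p up to 0.0724). Stat5b rose in implanted tumours by 0.82 (SE 0.10, limma adjusted p = 4.70e-06) and did not pass the test in the other tissues. Its close relative Stat5a rose by 0.84 in normal tissue and by 0.46 in implanted tumours, and the latter call was lost without implanted PBS 2 (0.35) or implanted cGAMP 1 (0.38). It was lost too when scaled by total reads (0.18, limma adjusted p = 0.282), with only the groups compared (limma adjusted p = 0.0622) and without the 3 libraries rich in Ptprc (limma adjusted p = 0.0544). Stat3 rose by 0.57 to 0.96 in all 3 tissues.

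The feedback inhibitor Socs1 and the survival kinase Pim1, both of which are induced by STAT signalling, rose in every tissue. Socs1 went from 5.75–7.03 FPKM under PBS to 33.6–56.3 FPKM after cGAMP in implanted tumours, with an effect of 2.60 (SE 0.18), beside 2.43 in normal tissue and 2.71 in MMTV-PyMT tumours. Pim1 changed by 1.70, 2.02 and 2.25 (SE 0.17). Both are known to answer to interferons as well as to IL-15. Cish, a STAT5 target, rose by 0.75 in normal tissue. In MMTV-PyMT tumours it rose by 0.56 (limma adjusted p = 0.0316), a call that ended without MMTV-PyMT PBS 2 or 3 or MMTV-PyMT cGAMP 1 or 2 (0.47 to 0.58) or when scaled by total reads (0.45, limma adjusted p = 0.0629), and its value in implanted tumours was 0.41 (limma adjusted p = 0.0527). Bcl2, a gene against cell death that IL-15 sustains in lymphocytes, fell by 0.67 in implanted tumours (SE 0.13, limma adjusted p = 0.000692). Adam17, a protease that can release the alpha chain from the surface, fell by 0.44 in normal tissue and rose by 0.39 in implanted tumours. Scaled by total reads, the latter value was 0.08 (limma adjusted p = 0.399).

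Il7, a cytokine of the same receptor family that also maintains lymphocytes, was low everywhere. It was at 1.92, 2.43 and 2.30 FPKM in implanted cGAMP and at 0.189, 0.518 and 0.482 FPKM in implanted PBS. It rose there by 1.21 (SE 0.11, limma adjusted p = 4.87e-07), with no overlap. In normal tissue its effect was -0.21 (limma adjusted p = 0.182) and in MMTV-PyMT tumours 0.23 (limma adjusted p = 0.218). As with Il15ra, the difference between tissues passed the test, at 0.98 for implanted minus MMTV-PyMT tumours (limma adjusted p = 0.00111) and 1.42 for implanted minus normal tissue (limma adjusted p = 3.01e-05).

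Il2ra encodes the alpha chain of the IL-2 receptor and lies 12096 bases from Il15ra on the side of lower coordinates. It fell by 0.97 in normal tissue (SE 0.32, limma adjusted p = 0.0310), and that call was lost without normal PBS 2 or 3 or normal cGAMP 2 or 3, with values from -1.02 to -0.84, and with a pseudocount of 0.1 (-1.27, limma adjusted p = 0.0704). In implanted cGAMP it was at 1.07, 5.95 and 1.16 FPKM against 0.297 to 0.656 FPKM under PBS, a rise of 1.16 (SE 0.32, limma adjusted p = 0.00967). Implanted cGAMP 2 again held the high value, and without it the rise was 0.59 (limma adjusted p = 0.0121). With only the groups compared the call was lost (limma adjusted p = 0.0923). On the other side of Il15ra, Fbh1, a DNA helicase gene 8255 bases away, fell by 0.80 in normal tissue (SE 0.09, limma adjusted p = 1.02e-05) and its effect in implanted tumours was -0.23 (limma adjusted p = 0.0614). The nearest listed genes to Il15 were Inpp4b at 203717 bases and Zfp330 at 360384 bases, and neither was called in implanted tumours, with effects of 0.11 (limma adjusted p = 0.619) and 0.04 (limma adjusted p = 0.801).

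**Figure D4:**
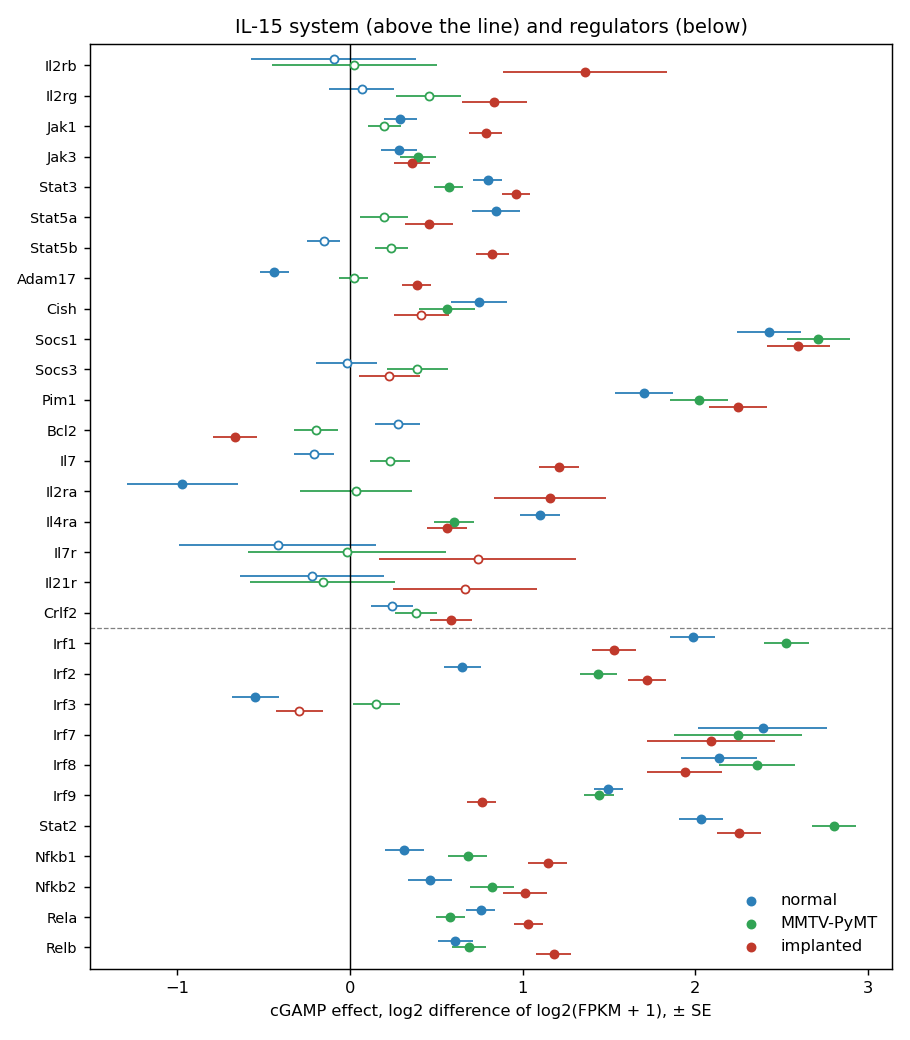
The cGAMP effect on the log2(FPKM + 1) scale with its SE for 19 tested genes of the IL-15 system (above the dashed line) and 11 of 12 regulators (below), in normal (blue), MMTV-PyMT (green) and implanted (red) tissue. Filled points passed an adjusted p of 0.05 and open points did not; Il7, Jak1 and Stat5b lie farther to the right in implanted tumours, and Irf1 and Irf9 farther to the left.

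The 12 regulators on a second list are interferon regulatory factors, STATs and NF-kB subunits, several of which are known to act on Il15. Of these, 11 were called higher in each tissue and 1, Irf3, was called lower in normal tissue. Over all genes, 13.7%, 7.42% and 20.3% were called higher in normal, MMTV-PyMT and implanted tissue in turn, and 18.2% lower in normal tissue. The median effect was 0.95 in normal tissue, 1.44 in MMTV-PyMT tumours and 1.35 in implanted tumours.

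Irf1, an interferon-induced activator, went from 36.9 ± 1.53 to 149 ± 10.6 FPKM in normal tissue (SD, n = 3) and from 48.3 ± 5.50 to 142 ± 22.4 FPKM in implanted tumours. In MMTV-PyMT tumours it went from 22.8 ± 4.80 to 134 ± 5.93 FPKM, so the tissues differed more under PBS than after cGAMP. Its effects were 1.98 in normal tissue, 2.53 in MMTV-PyMT tumours and 1.53 in implanted tumours (SE 0.13). Irf9, the DNA-binding part of a complex that type I interferon activates, rose by 1.496, 1.44 and 0.76 (SE 0.09). For both, the effect was smaller in implanted than in MMTV-PyMT tumours, with a difference of -0.998 for Irf1 (limma adjusted p = 0.00232) and of -0.68 for Irf9 (limma adjusted p = 0.00182). Irf2, a relative of Irf1 that binds the same sites, rose by 0.65, 1.44 and 1.72 (SE 0.11), and its effect was larger in implanted tumours than in normal tissue by 1.07 (limma adjusted p = 0.000203).

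All 4 NF-kB subunits were called higher in all 3 tissues, Nfkb1 in normal tissue with a limma adjusted p of 0.0443 that no longer passed in 11 of the 18 fits without 1 library (up to 0.117). Without the 3 libraries rich in Ptprc, Nfkb1 (limma adjusted p = 0.143) and Nfkb2 (limma adjusted p = 0.0880) lost their calls in normal tissue. Rela, the main activating subunit, rose by 0.76, 0.58 and 1.03, and Relb by 0.61, 0.69 and 1.18. In the difference between implanted and MMTV-PyMT tumours, 2 of the 12 regulators were called higher (Rela and Relb) and 2 lower (Irf1 and Irf9), where 7.34% and 3.72% of all genes were. In the difference between implanted and normal tissue 4 were called higher and 1 lower, against 12.5% and 6.09%.

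Among all tested genes, those whose log2(FPKM + 1) was most like that of Il15 over the 18 libraries were Fmnl2, Mxd1, Ptbp3, Slc15a3 and Timeless (Pearson's r of 0.990, 0.990, 0.985, 0.985 and 0.985). The libraries fall into a group of 3, implanted cGAMP, and the rest, and the same read depths and scaling stand behind each pair of values. Mxd1, a transcriptional repressor of the MAX network, had means of 3.43, 3.90 and 6.78 FPKM under PBS in normal, MMTV-PyMT and implanted tissue. After cGAMP they were 6.69, 8.29 and 90.3 FPKM. Slc15a3, an endolysosomal transporter of peptides and histidine, had means of 3.11 FPKM in implanted PBS and 35.9 FPKM in implanted cGAMP.

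For Il15ra the 5 most like genes were Med13, Vps54, Arfgef1, Armc8 and Avl9 (r from 0.920 to 0.949), and none of them is among the 5 of Il15. Med13, a subunit of the Mediator kinase module, had its lowest mean in implanted PBS (19.999 FPKM) and its highest in implanted cGAMP (40.6 FPKM), as Il15ra did. Between Il15 and Il15ra themselves r was 0.733. It placed Il15ra at number 1320 among the genes most like Il15, and Il15 at number 379 among those most like Il15ra. In PBS libraries both genes differed in order, with implanted tumours the highest for Il15 and the lowest for Il15ra.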

How the data were processed

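RNA of sorted ECs was sequenced from directional libraries (NEBNext Ultra II). Per the labels, the authors used FastQC, STAR 2.7, HTSeq and genome build mm10; whether counting used strand is not given in the sources used here. The authors deposited 1 table of FPKM values, and how counts were turned into FPKM was not stated. Its 6 columns that name no tumour were taken as normal tissue, the only one left. No value was 0, and a gene with no read in some library is thus not in the table. Low values were whole multiples of what 1 read is worth, which gave back whole reads for 16169 of 16248 genes (99.5%, within 0.05 of a read). The implied lengths equalled GENCODE M21 exon lengths for 98.5% of genes with a unique symbol. The FPKM denominators were 0.745 to 0.841 times the reads in implanted cGAMP and 0.978 to 1.17 times in the other groups. Reads carried no molecular identifiers, so counts cover counting error only. Replicate pairs all differed by more than sampling noise (chi-square per gene 4.07 to 31.4, genes with at least 10 reads).

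Genes with FPKM of at least 1 in at least 3 libraries (13983, with 2265 below) were fitted as log2(FPKM + 1) with limma 3.58.1 in R 4.3.3 (lmFit, contrasts.fit, eBayes with trend, 2-sided), with 1 mean per group over 18 libraries, 9 comparisons and Benjamini-Hochberg adjustment over all genes. A gene was called at an adjusted p under 0.05. The fit and the read recovery were tested on simulated data. Named genes were both members, the genes of 2 lists, the nearest listed gene on each side and the 5 genes with the highest correlation with each member. Members and lists were chosen with earlier results of these data known. Alternatives were other pseudocounts, filters, scalings, voom, a replicate block, fewer groups and leaving out libraries. Proteins were not analysed here, and 1 regulator is counted in its list but is not reported here by itself.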

Additional observations from a re-analysis of the deposited data

Results flagged for a closer look

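Results are given here where the cGAMP effect differed between tissues by limma's test of the difference (log2 scale, adjusted over all genes). The tissues share no libraries, but both differences use the implanted tumours. Il15ra had differences of 1.30 (adjusted p = 0.000101) for implanted minus MMTV-PyMT tumours and 1.27 (adjusted p = 5.32e-05) for implanted minus normal tissue.

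Other genes differed between implanted and MMTV-PyMT tumours. The effect was larger in implanted tumours for Il7 by 0.98 (adjusted p = 0.00111), Jak1 by 0.59 (adjusted p = 0.00942), Stat5b by 0.59 (adjusted p = 0.00988), Relb by 0.49 (adjusted p = 0.0327), Rela by 0.45 (adjusted p = 0.0215) and Stat3 by 0.39 (adjusted p = 0.0449). The difference was -0.998 for Irf1 (adjusted p = 0.00232) and -0.68 for Irf9 (adjusted p = 0.00182).

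Against normal tissue, the effect in implanted tumours was larger for Il2ra by 2.13 (adjusted p = 0.00410), Il7 by 1.42 (adjusted p = 3.01e-05), Irf2 by 1.07 (adjusted p = 0.000203), Stat5b by 0.98 (adjusted p = 0.000153), Nfkb1 by 0.83 (adjusted p = 0.00196), Adam17 by 0.83 (adjusted p = 0.000213), Relb by 0.57 (adjusted p = 0.00980), Nfkb2 by 0.55 (adjusted p = 0.0435) and Jak1 by 0.49 (adjusted p = 0.0171). The difference was -0.94 for Bcl2 (adjusted p = 0.00206), -0.73 for Irf9 (adjusted p = 0.000598) and -0.54 for Il4ra (adjusted p = 0.0289). For Il2ra, 1 library of implanted tumours after cGAMP held 5.95 FPKM and the others 1.07 and 1.16 FPKM.

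Several of these calls were near the threshold. In the 18 fits that left out 1 library each, the difference from MMTV-PyMT tumours no longer passed in 12 for Stat3, in 6 for Relb and in 1 for Rela (without MMTV-PyMT PBS 1, adjusted p = 0.0565). The difference from normal tissue no longer passed in 11 for Nfkb2, in 6 for Il4ra and in 1 for Jak1 (without normal PBS 3, adjusted p = 0.0510). With quantile normalization Jak1, Relb, Rela, Stat3 and Nfkb2 lost their calls, and with scaling by total reads the same held except for Jak1 against MMTV-PyMT tumours. With only the groups compared, Rela, Relb and Stat3 against MMTV-PyMT tumours and Jak1 against normal tissue lost theirs. Without the 3 libraries rich in Ptprc, Stat3 against MMTV-PyMT tumours and Il4ra and Nfkb2 against normal tissue did. A pseudocount of 0.1 ended the calls of Relb against MMTV-PyMT tumours and Nfkb2 against normal tissue, and voom ended the former.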

How the results depend on the processing

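The call for Il15ra in implanted tumours and its differences to the other tissues held under each alternative that kept the gene. Its adjusted p there ran from 3.28e-08 to 0.000297. A filter on a mean FPKM of at least 5 left Il15ra out. The cGAMP effect of Il15 in implanted tumours was 3.79 with a pseudocount of 0.1, 3.14 with quantile normalization, 3.21 with scaling by total reads, 3.82 with voom and 3.25 to 3.69 without 1 library. Its excess over MMTV-PyMT tumours was 2.30 with quantile normalization and 2.35 to 2.79 without 1 library. Its excess over normal tissue was 2.26 with quantile normalization, 2.38 with total reads and 2.43 to 2.88 without 1 library. With voom its effect in MMTV-PyMT tumours was 1.16. The small difference of the Il15ra effect between MMTV-PyMT and normal tissue ran from -0.1221 to 0.0415 without 1 library and was 0.0923 without the 3 libraries rich in Ptprc; the PBS difference ran from -0.0042 to 0.16 and was -0.0042 without those 3. With a required 2-fold change, called genes of the IL-15 system fell to 3 higher and 0 lower in normal tissue, 2 higher in MMTV-PyMT tumours, and 5 higher and 0 lower in implanted tumours. The regulators fell to 6 higher and 0 lower in normal tissue and 7 higher in MMTV-PyMT tumours, with 10 higher in implanted tumours. With total reads, 9 genes of the IL-15 system were higher in implanted tumours, 1 regulator was lower, and the median of all genes was -0.25. In normal tissue 1 gene of the IL-15 system was lower with a pseudocount of 0.1 and with the mean of at least 5 FPKM, and 1 to 3 were without 1 library. For the 2-fold limit and these other settings, the shares of all genes called are not given here. The counts can therefore not be set against them. Uncalled receptor chains changed sign: Il2ra in MMTV-PyMT tumours was -0.0658 with quantile normalization and -0.0702 to 0.0965 without 1 library, Il2rb there -0.0753 and -0.0122 to 0.0829. In normal tissue Il2rb ran from -0.5978 to 0.268 and Il2rg from -0.0809 to 0.1826 without 1 library. Called genes of the lists lost their call in 84 results without 1 library and 48 under other alternatives, while 1529 and 750 kept direction and side of the threshold.

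Deviations of same-numbered libraries of a tissue correlated between -0.291 and 0.263. Libraries with different numbers were not compared in this way, so these values cannot show whether samples were paired. With a replicate block the Il15ra effect in implanted tumours was 1.47 (adjusted p = 1.48e-07), and no Il15ra call changed. The block ended the calls of Jak3 and Nfkb1 in normal tissue (adjusted p = 0.0724 and 0.0593) and of Stat3 between implanted and MMTV-PyMT tumours (adjusted p = 0.0617). A planned quasi-likelihood count test on recovered reads was not run, because FPKM do not meet the condition set for it. Il15 rested on 54 to 96 reads in PBS libraries, which limits the precision of its folds.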
